A study of Mus musculus with 7 samples.

Results

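The 34 genes described here encode the proteins that carry glucose into the cell, break it down to pyruvate, pass pyruvate to lactate or to the mitochondrion, and divert glucose phosphate into the pentose phosphate pathway, together with Hif1a, a transcription factor subunit that acts on many of them. They were chosen by name, and each was matched on its gene symbol among the 55364 genes counted. All 34 had at least 1 count in the series, and 31 held enough counts to be tested. The others, Pfkm, Eno3 and Mpc1, did not pass the filter on low counts.

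RNA came from CD4 T cells, gated as CD45+CD3+CD4+, of lung tumours grown orthotopically in C57BL/6 mice more than 8 weeks old. All mice were homozygous for a floxed I-Ab allele (I-AbF/F), which encodes a chain of MHC class II, and all received tamoxifen. The 5 Control libraries came from mice without Cre and the 2 Cre libraries from mice that also carried Col1a2-cre (I-AbF/FCol1a2-cre), in which the fibroblast-expressed Col1a2 promoter drives Cre. The deletion was therefore aimed at fibroblasts around the T cells, and no gene counted in the sorted cells checks it. Each sample was sequenced from the 3′ ends of its transcripts, and the comparison of Cre with Control asks which T cell transcripts differ when tumour fibroblasts carry the deletion. The design text calls the libraries biological replicates.

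Glycolysis splits glucose into pyruvate in the cytosol and yields ATP without oxygen. T cells that are activated and divide take up more glucose and release much of the carbon as lactate through lactate dehydrogenase, whereas resting T cells pass more pyruvate to the mitochondrial pyruvate dehydrogenase complex, which makes acetyl-CoA. Pyruvate dehydrogenase kinases phosphorylate that complex and switch it off. The pentose phosphate pathway supplies NADPH and ribose for nucleotides. In low oxygen, hypoxia-inducible factor induces glucose transporters, glycolytic enzymes, lactate dehydrogenase A and pyruvate dehydrogenase kinase.

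That factor binds DNA at the cores ACGTG and GCGTG. RefSeq promoters (build GRCm38.p6, 250 bases before to 50 bases after each transcript start) were found for 33 of the 34 genes, all but Slc2a3. On either strand, 38 of their 49 promoters (77.6%) held ACGTG or GCGTG, against 43.8% of all 32851 promoters of the same length and 50.2% of those of protein-coding genes. ACGTG stood in 21 (42.9%, against 19.6% of all and 21.1% of protein-coding). The longer CACGTG, the site of Myc and its partners, which contains ACGTG, stood in 6 (12.2%, against 7.15% and 8.04%). Gpi1, Tpi1 and Dlat were the genes with neither core. These promoters also held more CpG pairs than others (median 20 against 7 per 300 bases) and both cores contain CG, so the shares are not matched on base composition. A match is a run of letters and not a measured site. Windows of 25 bases are shown, with the core in capitals, for the 2 genes of the pyruvate dehydrogenase step with the lowest unadjusted p-values below and for 2 genes known as targets of the factor. The Ldha core shown lies within a CACGTG.
Pdk1 (chr2:71873136-71873160, plus strand): gcctacatggGCGTGtctttaacca
Pdha1 (chrX:160138439-160138463, minus strand): gactagcgcgGCGTGtgatgccgtc
Ldha (chr7:46845747-46845771, plus strand): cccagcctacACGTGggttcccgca
Pgk1 (chrX:106186940-106186964, plus strand): gtcgtgcaggACGTGacaaatggaa

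Library totals ran from 1449739 to 1929899 counts. Levels are given in CPM, which are counts scaled to each library's total, in the order of replicates 1 to 5 for Control and 1 and 2 for Cre. A gene at 0 counts could lie as high as 3 counts, a limit for counting error only, which equals 1.55 to 2.07 CPM for 1 library and 0.888 CPM for the Cre pair. The Cre libraries detected fewer genes than the Control libraries. Of the 31 tested members, 26 to 31 had counts in each Control library and 27 and 23 in the Cre libraries, where 25.01% and 33.6% of all tested genes were at 0, against 1.14% to 16.1% in Control. The sum over 10 T cell markers was 4865 to 6434 CPM in Control, with 6035 and 4839 CPM in Cre. Of these, Cd4 stood at 203 to 454 CPM in Control, with 379 and 391 CPM in Cre. Cd3e stood at 34.4 to 235 CPM in Control, with 60.1 CPM in Cre replicate 1, but at 3 counts (2.07 CPM) in Cre replicate 2, no more than a gene at 0 could reach. Of 13 macrophage and monocyte markers, Adgre1 and C1qc were at 0 everywhere, and the list summed to 248 to 316 CPM in Control replicates 1 to 4, 6972 CPM in Control replicate 5 and 146 and 283 CPM in Cre. Apoe alone gave 6676 CPM of the Control replicate 5 value. The 12 fibroblast markers, of which Pdgfrb was at 0, summed to 303 to 918 CPM in Control, with 2094 and 87.6 CPM in Cre. Of 11 lung epithelial and tumour cell markers, Krt8, Krt18, Krt19, Sftpb, Scgb1a1 and Nkx2-1 were at 0, and the list summed to 0.614 to 25.2 CPM in Control, with 58.0 and 1.38 CPM in Cre. The endothelial, neutrophil, B cell, red blood cell, and CD8 T and NK cell lists each summed to at most 353 CPM in any library. The part of these other cells in the values below was not tested. In bulk samples, fewer cells of a type and less RNA per cell cannot be told apart.

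The 34 genes together held a similar share of the counts in every library. They summed to 3136, 2447, 3222, 2856 and 2644 CPM in Control (mean 2861 ± 326, SD, n = 5), with 3034 and 2972 CPM in Cre (3003 ± 44.4, n = 2), so both Cre sums lay inside the Control range. No member passed the threshold in either direction (edgeR quasi-likelihood test, adjusted p = 0.422 to 0.998), where 0.0% of 9854 tested genes passed as higher in Cre and 0.0101% as lower. At an unadjusted p under 0.05, 0 members were higher and 1, Pdha1, was lower, against 1.41% and 10.2% of all tested genes. DESeq2, which called 0.315% of genes higher and 5.69% lower, called 0 of the 31 members. Limma voom called 0 members as well, with 0.0304% of genes higher and 0.0% lower. Of the 34 members, Aldoc alone had an FDR under 0.05 in the authors' deposited table, as lower (0.0353), where 0.211% of genes were higher and 3.64% lower.

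Fitted values were higher in Cre for 15 of the 31 tested members and lower for 16, and over all tested genes 39.9% were higher and 60.1% lower. Their median log2 fold change was −0.33, and that of all tested genes −0.39. The 12 members with a fitted mean of at least 100 CPM had a median of 0.14, beside −0.01 for all 1925 such genes. The 19 below it had a median of −1.03, beside −0.66 for 7929 genes. For 1 tested member, Pdk1, or 3.23% of the 31, both Cre values exceeded all Control values, against 4.05% of all tested genes. For Pdha1, Pfkl, Aldoc and Pgam1, or 12.9%, both were below all Control values, against 10.9%. For Pfkl this held for the sum over its regions but not for the region at its end. These shares of the members are near those of all tested genes.

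**Figure D1:**
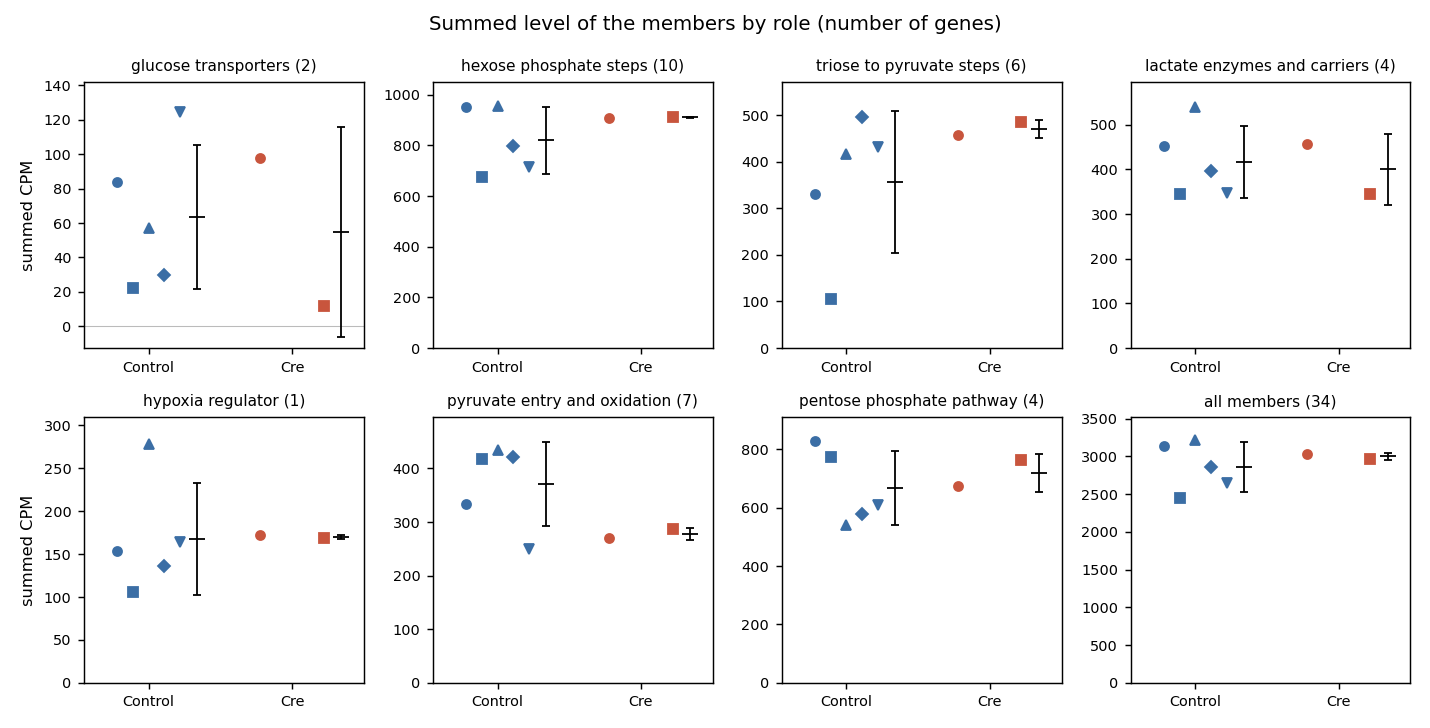
Summed level (CPM, linear axes) of the 34 genes by role in each library; blue points are the 5 Control and red points the 2 Cre libraries, marker shapes are replicate numbers, and bars are the mean and SD. The 2 Cre sums lie within the Control range for every role except glucose transport, where Cre replicate 2 (11.7 CPM) lies below it, and the lactate genes, where it lies just below it (344 against 346 CPM).

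In the edgeR fit, the lowest unadjusted p-values among the members belonged to Pdha1 and Pdk1, at the gate between pyruvate and the mitochondrion. Aldoc came close behind (edgeR unadjusted p = 0.0676). The order depended on the fit. In DESeq2, Aldoc had the lowest unadjusted p (0.0065), before Pdha1 (0.0088), Ldhb (0.0348) and Pdk1 (0.0391). In the authors' deposited table, Aldoc, Pdha1, Pgam1 and Ldhb came before Pdk1. Pdk1 encodes a kinase that inhibits the pyruvate dehydrogenase complex, and Pdha1 the catalytic alpha subunit that it phosphorylates. Pdk1 stood at 82.5, 66.0, 43.0, 23.2 and 119.8 CPM in Control, with 162 and 198 CPM in Cre. Every Cre value was above every Control value, and the Control libraries spread widely among themselves. The fitted log2 fold change was 1.44 ± 0.69 (SE) and did not pass (edgeR unadjusted p = 0.0596, adjusted p = 0.429). Pdha1 stood at 129, 159.6, 164, 129 and 68.2 CPM in Control, with 16.6 and 49.7 CPM in Cre. Here both Cre values were below the lowest Control value, that of replicate 5. Its log2 fold change was −1.99 ± 0.77 (edgeR unadjusted p = 0.0243, adjusted p = 0.422), with −1.38 without Cre replicate 1 and −2.92 without Cre replicate 2. Control replicate 5, the library with the high Apoe count, had the Control value nearest to Cre for both genes. Leaving it out therefore widened both differences (1.73 for Pdk1 and −2.15 for Pdha1) and says nothing about the source of the Apoe count. The smallest values with 1 Control library left out were 1.22 for Pdk1 (replicate 4) and −1.86 for Pdha1 (replicate 3).

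Pdk1 (ENSMUSG00000006494) lies on chromosome 2 at 71873224 to 71903858 (mm10, plus strand). Of its counts, 96.9% lay in the region at 71900125 to 71904107, where 3734 of 3983 bases are annotated untranslated exon and 249 lie past the gene's end. Pdha1 (ENSMUSG00000031299) lies on the X chromosome at 160122209 to 160138413 (minus strand), with 99.1% of counts in the region at 160121960 to 160123782, of which 1574 of 1823 bases are untranslated exon. Neither region shares bases with a counted region of any other gene on its strand, and neither transcript end had a near-identical copy elsewhere.

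The other members at this step had low or uneven counts. Pdhb, the beta subunit of the same enzyme, stood at 33.2, 103, 112, 190.2 and 33.8 CPM in Control, with 62.2 and 2.07 CPM in Cre, so that Cre replicate 1 lay among the Control libraries and replicate 2 far below them. Its log2 fold change of −1.52 ± 1.22 (edgeR adjusted p = 0.656) became −0.55 without Cre replicate 2 and −5.45 without Cre replicate 1. Of the Pdhb counts, 60.8% lay in the region at the gene's end, where Control replicate 4 had 23.8 CPM. With that region alone the log2 fold change was −0.69 ± 1.41. Dlat, the acetyltransferase core of the complex, had 1.16 to 25.5 CPM in Control, with 1.55 and 0 CPM in Cre. Mpc2, which forms the mitochondrial pyruvate carrier with Mpc1, stood at 54.6, 63.3, 95.9, 65.5 and 10.4 CPM in Control, with 27.5 and 36.6 CPM in Cre (log2 fold change −0.86 ± 1.12, edgeR adjusted p = 0.832). Only Control replicate 5 lay below the Cre libraries. Of the Mpc2 counts, 54.3% lay in the region at the gene's end. That region had 0 counts in Control replicate 5 and in Cre replicate 1, and 27.6 CPM in Cre replicate 2. With it alone the log2 fold change was −1.37 ± 2.12. Mpc1 had counts in 3 Control libraries, at most 20.2 CPM, and none in Cre. Pdk2, another kinase of the complex, had 0 to 14.7 CPM in Control and 0 counts in both Cre libraries. That is at least 6.87-fold below the Control mean, but 2 Control libraries were at 0 as well. Of the 6 tested members at this step, 5 had lower fitted values in Cre, with Pdk1 as the exception, where 60.1% of all tested genes were lower. The 6 members and Mpc1 summed to 250.04 to 434 CPM in Control, with 270.0 and 286 CPM in Cre, which lay inside that range.

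**Figure D2:**
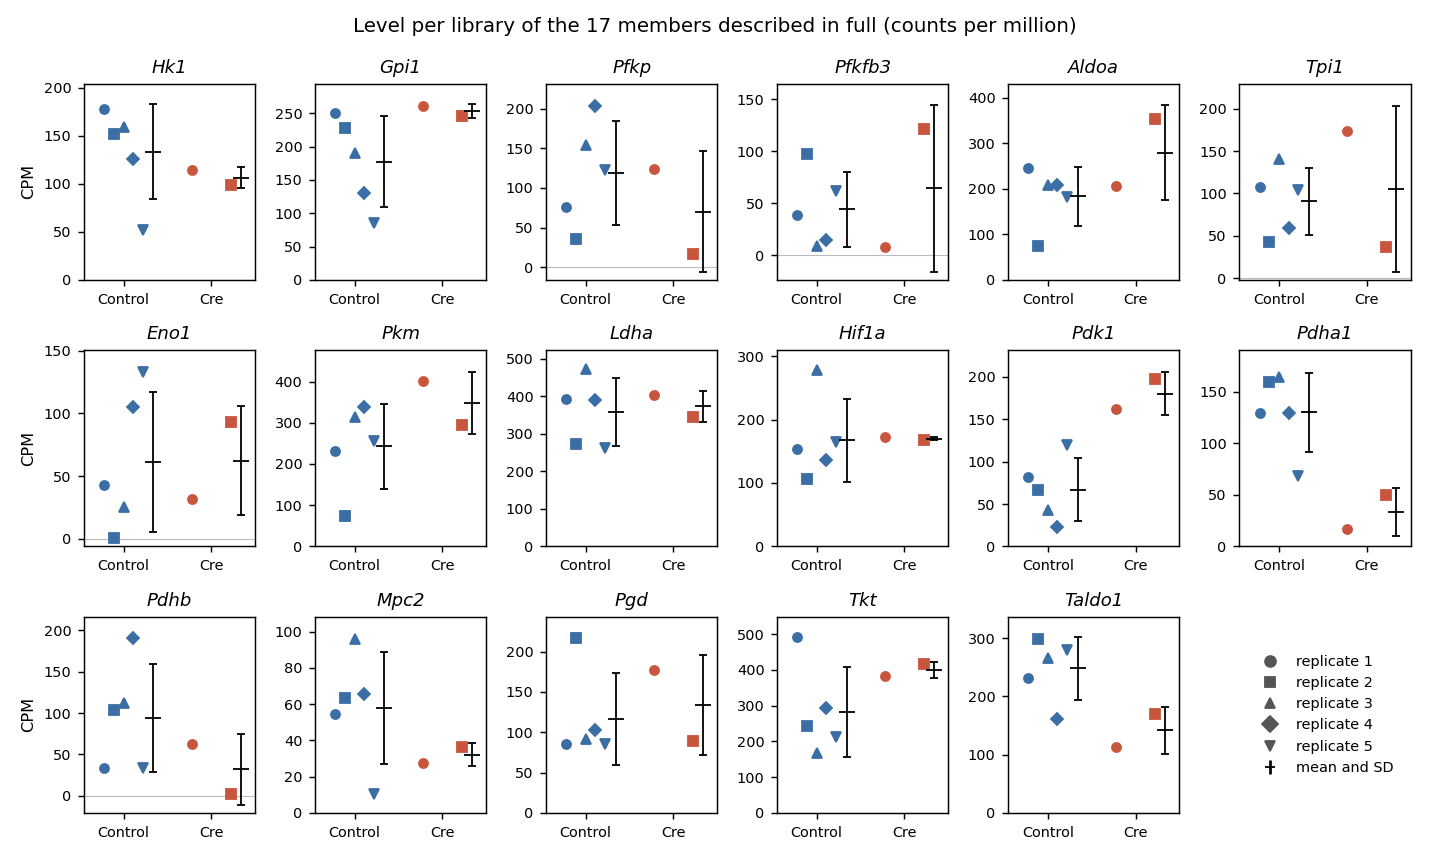
Level in each library (CPM, linear axis) of the 17 members with a mean of at least 50 CPM over all libraries or an unadjusted p under 0.05; points are libraries, shapes are replicate numbers, and bars are the mean and SD. Pdk1 and Pdha1 are the panels in which the red Cre points and the blue Control points do not overlap.

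Lactate dehydrogenase A, which turns pyruvate into lactate, had close values in the groups. Ldha stood at 391, 272, 474, 391 and 262 CPM in Control (358 ± 89.7), with 403 and 344 CPM in Cre (373 ± 41.3). Both Cre values lay inside the Control range. Its log2 fold change was 0.063 ± 0.40 (edgeR adjusted p = 0.973), and its sign turned with upper-quartile scaling (−0.043). Ldhb, the isoenzyme that favours the reverse reaction, had 14.8, 0, 11.7, 6.38 and 57.1 CPM in Control, with 1.04 and 0 CPM in Cre (edgeR adjusted p = 0.456). The Ldhb level was 18.0 ± 22.6 CPM in Control, and the Ldha level was the higher in each of the 7 libraries. The lactate carrier Slc16a3 varied widely, from 0 to 73.4 CPM in Control, with 52.3 and 0 CPM in Cre. Slc16a1, the other carrier, was at 0 in 3 Control libraries and in both Cre libraries. That is at least 6.18-fold below the Control mean, which rests on 11 and 34 counts in replicates 1 and 5. The Control libraries at 0 cannot be told from Cre. Slc16a1 and Pdk2 were 2 of the 31 tested members at 0 in both Cre libraries, against 13.7% of all tested genes.

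Glucose transporter counts were low. Slc2a1, the transporter that activated T cells place on their surface, had 23.1, 0, 39.4, 0 and 57.7 CPM in Control, with 60.1 and 11.7 CPM in Cre (edgeR adjusted p = 0.944). Slc2a3 had 60.5, 22.2, 17.8, 29.6 and 67.0 CPM in Control, with 37.8 and 0 CPM in Cre (edgeR adjusted p = 0.881). The Cre libraries of Slc2a1 were the highest value of the series and 1 inside the Control range, and those of Slc2a3 were 1 inside it and the lowest of the series.

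Among enzymes that act on hexose phosphates, those with the most counts had overlapping groups. Hk1, the constitutive hexokinase that traps glucose in the cell, stood at 179, 152, 159, 126 and 52.2 CPM in Control, with 115 and 98.6 CPM in Cre (log2 fold change −0.33 ± 0.63, edgeR adjusted p = 0.902). Only Control replicate 5 lay below the Cre values. Hk2, the inducible hexokinase, was at 0 in 3 Control libraries and in Cre replicate 1, and at 40.0 CPM in Cre replicate 2. The Hk1 level was higher than that of Hk2 in every library (134 ± 49.2 CPM against 5.13 ± 9.33 CPM in Control). Gpi1, the glucose phosphate isomerase, stood at 249.7, 228, 191, 130.5 and 86.0 CPM in Control, with 261 and 246 CPM in Cre (0.51 ± 0.51, edgeR adjusted p = 0.749). Cre replicate 1 was above all Control libraries and Cre replicate 2 above all but 1. Control replicate 5 had the lowest Hk1 and Gpi1 values of the series, and also the lowest Ldha and Mpc2 values.

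Phosphofructokinase commits sugar to glycolysis. Its platelet-type subunit Pfkp stood at 76.5, 35.0, 154, 204 and 122 CPM in Control, with 124 and 16.6 CPM in Cre (−0.72 ± 0.90, edgeR adjusted p = 0.82). The Cre libraries lay inside and below the Control range, and the fitted value was 0.12 without Cre replicate 2 and −2.82 without Cre replicate 1. The liver-type subunit Pfkl had 24.2 to 47.0 CPM in Control, with 19.2 and 0.69 CPM in Cre (−1.78 ± 1.59, edgeR adjusted p = 0.705). These sums over its regions did not overlap, but only through a region without an annotated exon. The region at the gene's end had 13.6 to 38.7 CPM in Control, with 19.2 and 0.69 CPM in Cre, so the groups overlapped there. With that region alone the fitted value was −1.38 ± 1.68. Over all regions, the fitted value of Pfkl was −5.51 without Cre replicate 1 and −0.82 without Cre replicate 2. The muscle-type Pfkm had counts in 1 library, Control replicate 1. Pfkfb3, whose product makes the sugar bisphosphate that activates phosphofructokinase, stood at 38.6, 97.0, 9.22, 14.5 and 62.0 CPM in Control, with 7.77 and 121 CPM in Cre. The Cre libraries were the lowest and the highest of the 7, and the fitted value of 0.54 ± 1.25 (edgeR adjusted p = 0.927) turned to −2.44 without Cre replicate 2.

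Aldolase and triose phosphate isomerase finish the first stage. Aldoa stood at 246, 74.1, 208, 208 and 181 CPM in Control, with 206 and 353 CPM in Cre (0.60 ± 0.51, edgeR adjusted p = 0.69). Cre replicate 2 was the highest library and Cre replicate 1 lay inside the Control range. Of the Aldoa total, 77.5% lay in the region at the gene's end. There both Cre values (168 and 205 CPM) lay inside the Control range of 64.7 to 218 CPM. With that region alone the fitted value was 0.25 ± 0.57. The other counted region, further inside the gene, held 9.43 to 84.2 CPM in Control, with 37.8 and 148 CPM in Cre. Aldoc, the brain-type isoenzyme, had 17.8, 24.2, 56.0, 8.70 and 48.5 CPM in Control, with 3.11 and 0 CPM in Cre. The groups did not overlap, and calls for Aldoc differed between fits, with an adjusted p of 0.429 in edgeR and 0.0803 in DESeq2 and an FDR of 0.0353 in the authors' deposited table. The edgeR log2 fold change of −4.18 ± 2.08 was −8.61 without Cre replicate 1 and −3.22 without Cre replicate 2. The −8.61 rests on 0 counts in Cre replicate 2, so its size is not measured. Tpi1 stood at 108, 42.4, 141, 59.7 and 104 CPM in Control, with 174 and 36.6 CPM in Cre (0.23 ± 0.78, edgeR adjusted p = 0.95). Its Cre libraries were the highest and the lowest of the series.

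Of the enzymes from triose phosphate to pyruvate, pyruvate kinase had the most counts. Pkm stood at 231, 74.8, 314, 338 and 256 CPM in Control, with 402 and 295 CPM in Cre (0.53 ± 0.52, edgeR adjusted p = 0.74). Cre replicate 1 was the highest library and Control replicate 2 the lowest. Control replicate 2 was also the lowest for Aldoa and Eno1. Pgk1, the phosphoglycerate kinase, had 8.70 to 29.1 CPM in Control, with 12.4 and 94.5 CPM in Cre (1.47 ± 1.30, edgeR adjusted p = 0.701). Its fitted value was −0.56 without Cre replicate 2. Pgam1, the phosphoglycerate mutase, had 12.5, 14.1, 55.3, 11.6 and 4.91 CPM in Control, with 2.59 and 1.38 CPM in Cre, without overlap (−3.24 ± 2.04, edgeR adjusted p = 0.507). Without Control replicate 3, the highest library, it was −2.36. In Cre these levels were 5 and 2 counts, close to the limit of 3. Eno3, the muscle enolase, had at most 5 counts in a library.

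Gapdh, an abundant housekeeping transcript in most cells, had few counts, 20, 4, 5, 54 and 19 in Control and 17 and 0 in Cre. Its gene (ENSMUSG00000057666, chromosome 6, 125161715 to 125166467, minus strand) was counted in 1 region at its end. The last 300 bases of its transcripts matched 208 other genes at 90% identity or more over at least 150 bases, of which 200 are annotated pseudogenes and 51 matched at 98% or more. Those copies held 533 counts in the series, against 119 at Gapdh itself, and 74 of them had at least 1 count. Of the 533, 54 were at the protein-coding gene Peli2, which matched at 92.2%, and 51 of these were in Control replicate 4. All 208 matching genes, Peli2 included, summed to 71.8, 36.4, 24.0, 84.7 and 27.0 CPM in Control, with 55.4 and 15.2 CPM in Cre. How reads with several possible origins were counted is not given in the sources used here, so counts at Gapdh and its copies are uncertain as a level of the gene.

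Eno1, the enolase of most tissues, summed to 43.3, 0.674, 25.2, 105 and 133 CPM in Control, with 31.6 and 93.1 CPM in Cre, a log2 fold change of 0.033 ± 1.31 (edgeR adjusted p = 0.998). Of these counts, 59.3% lay in the region on chromosome 4 at 150239937 to 150240185, which holds no annotated exon of the gene. That region had 36.2, 0, 0, 29.6 and 69.4 CPM in Control, with 31.1 and 93.1 CPM in Cre. The region at the gene's 3′ end (150248556 to 150249128) had 1.78, 0, 16.0, 20.9 and 3.69 CPM in Control and 0 counts in both Cre libraries. Transcript ends of Eno1 matched 8 other genes, 7 of them pseudogenes, which summed to 94.9, 70.05, 151, 89.3 and 47.9 CPM in Control, with 18.7 and 38.6 CPM in Cre. Most of these counts (763 of 833) were at the pseudogene Gm4735, which matched without a mismatch. The most counted region was highest in a Cre library, the 3′ end had no count in Control replicate 2 or in either Cre library, and the copies were lowest in Cre. The fitted value moved with the region used, from 0.033 over all regions to 1.14 with the most counted region alone, and the level of Eno1 is uncertain in these files. Gpi1 shared the feature in part. The region at 34214960 to 34215208 on chromosome 7, without an annotated exon, held 19.8% of its counts. There it had 50, 43, 58, 0 and 114 counts in Control, with 0 and 190 in Cre. The region at its end had 369, 296, 252, 225 and 26 counts in Control, with 503 and 166 in Cre. A near-identical pseudogene, Gm1840, held 153 counts. For Pfkl, 22.3% of counts lay outside annotated exons.

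**Figure D3:**
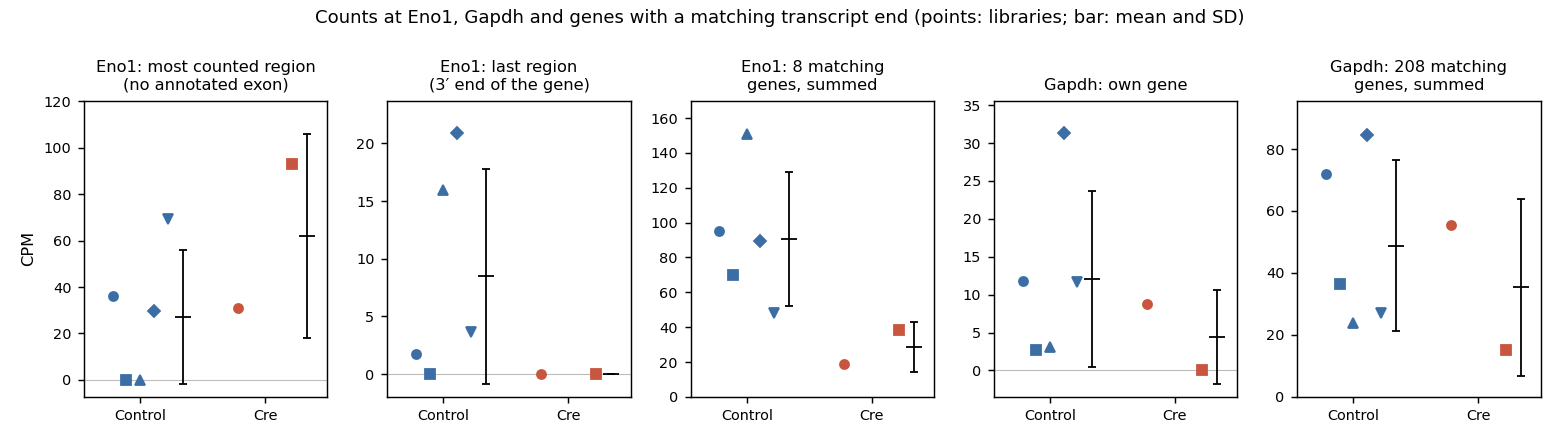
Level (CPM, linear axes) at 2 regions of Eno1, at Gapdh, and summed over the other genes that match the transcript end of each at 90% identity or more; points are libraries, shapes are replicate numbers, and bars are the mean and SD. For the Eno1 copies both Cre libraries (18.7 and 38.6 CPM) lie below the lowest Control library (47.9 CPM), while at the most counted Eno1 region Cre replicate 2 (93.1 CPM) is the highest.

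Of the 4 pentose phosphate genes, 3 had fitted values higher in Cre and 1 lower, against 39.9% and 60.1% of all tested genes. Tkt, the transketolase of the non-oxidative branch, stood at 491, 244, 166, 294 and 211 CPM in Control, with 383 and 415 CPM in Cre (0.49 ± 0.47, edgeR adjusted p = 0.738). Only Control replicate 1 lay above the Cre libraries. Taldo1, the transaldolase of the same branch, stood at 232, 299, 266, 162 and 280.1 CPM in Control, with 112 and 170.4 CPM in Cre (−0.80 ± 0.46, edgeR adjusted p = 0.451). Control replicate 4 lay between the Cre libraries and the other Control libraries above both. The 2 enzymes of this branch thus had fitted values of opposite sign, and neither passed. Pgd, the second dehydrogenase of the oxidative branch, stood at 85.4, 218, 91.6, 103 and 86.0 CPM in Control, with 177 and 89.7 CPM in Cre (0.21 ± 0.63, edgeR adjusted p = 0.942). Control replicate 2 and Cre replicate 1 were high and the other 5 libraries alike. G6pdx, the first and rate-limiting dehydrogenase, had 12.8 to 32.6 CPM in Control, with 0 and 89.0 CPM in Cre, outside the Control range on opposite sides.

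Hif1a encodes the subunit of hypoxia-inducible factor that oxygen destabilises, a control that acts on the protein. Its transcript stood at 154, 106, 278, 136 and 165 CPM in Control (168 ± 65.4), with 172 and 168 CPM in Cre (170.2 ± 2.63). The log2 fold change was 0.030 ± 0.51 (edgeR adjusted p = 0.991). The Cre values lay near the middle of the Control range. The sign turned with upper-quartile scaling (−0.066).

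The 2 Cre libraries disagreed on direction for many members. For 11 of the 31 tested members, or 35.5%, the fitted sign depended on which Cre library was kept, against 41.8% of the 9829 genes with both values. Among the 11 were G6pdx (−8.07 with Cre replicate 1 alone and 2.16 with Cre replicate 2 alone), Slc16a3 (0.62 and −8.82), Tpi1 (0.99 and −1.30) and Slc2a1 (1.39 and −0.99). The values of −8.07 and −8.82 each rest on a Cre library at 0 counts, so their size is not measured. With either library alone, 6 members were higher and 14 lower, or 19.4% and 45.2%, against 13.1% and 45.1% of the 9829 genes. In Control, the coefficient of variation of the 17 members described in full ran from 21.8% (Taldo1) to 90.4% (Eno1), and that of the other 17 from 24.5% (Pfkl) to 224% (Pfkm).

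**Figure D4:**
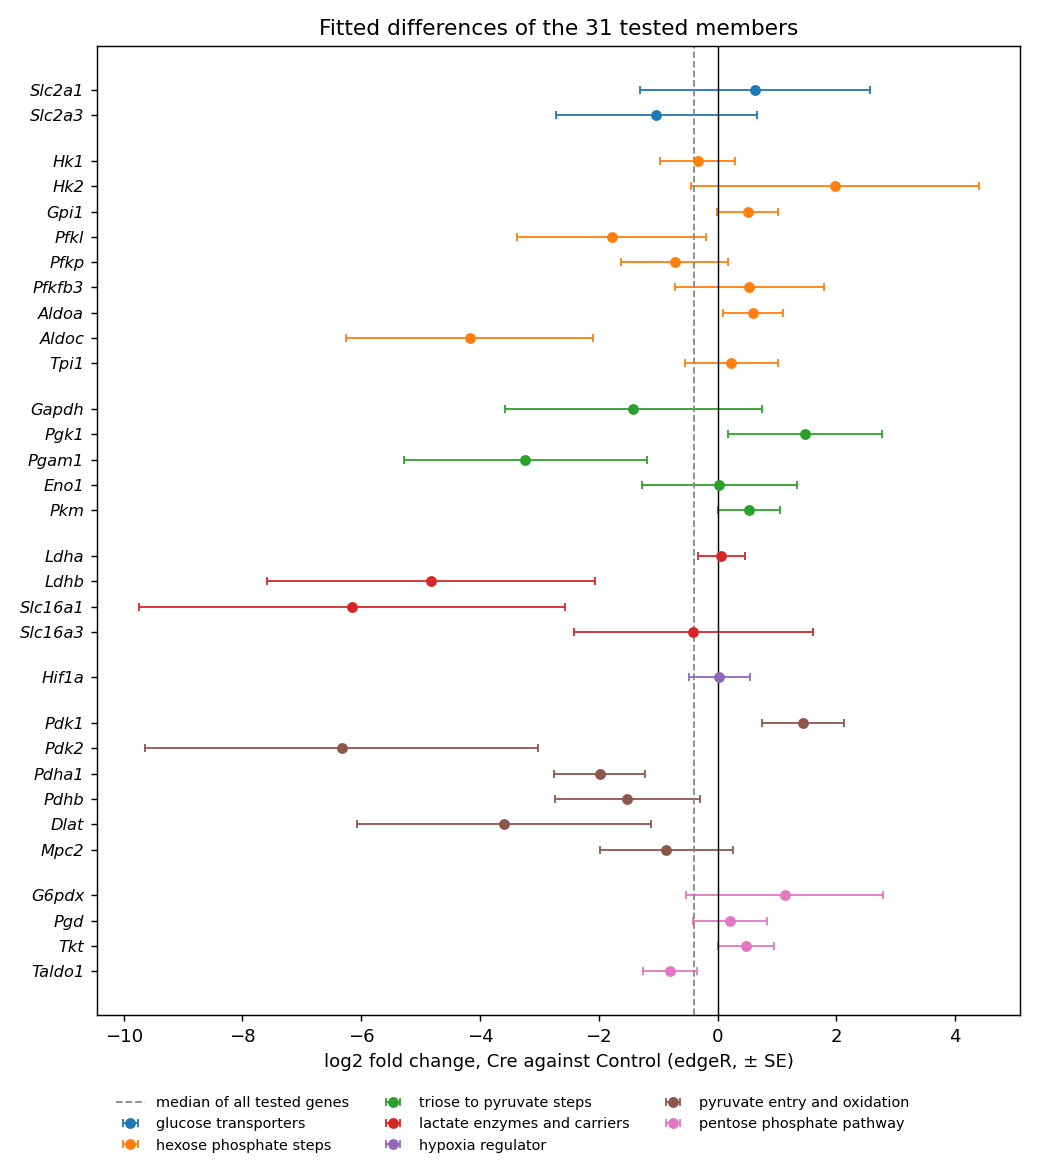
Log2 fold change of Cre against Control with its standard error (edgeR) for the 31 tested members, coloured by role; the solid line marks 0 and the dashed line the median of all tested genes (−0.39). No member passed the threshold after adjustment, and members with low counts, such as Pdk2, Slc16a1 and Ldhb, have the widest errors.

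Related genes outside the 34 were read from 6 lists. The lists were chosen with earlier results of these data known, and their medians were not tested. None of their tested genes passed edgeR in either direction. DESeq2 called 1 higher and 5 lower of the 52 tested, where it called 0.315% and 5.69% of all genes. Of 26 other glycolysis genes, 9 were tested and 12 had no count in the series. At an unadjusted p under 0.05, 1 was higher and 3 lower, against 1.41% and 10.2% of all tested genes, and DESeq2 called as many in each direction after adjustment. Their median log2 fold change was −4.89, or −2.78 with genes at 0 in Cre placed at their limit, beside −0.39 for all tested genes and −0.66 for those under 100 CPM. Pgam5, a mitochondrial phosphatase named after phosphoglycerate mutase, had 92, 37, 154, 24 and 88 counts in Control, with 0 in both Cre libraries. That is at least 54.6-fold below the Control mean (edgeR adjusted p = 0.323, DESeq2 adjusted p = 0.0006). Tigar, a phosphatase that lowers the activator of phosphofructokinase, had 63, 50, 5, 17 and 93 counts in Control, with 2 and 1 in Cre (edgeR adjusted p = 0.427, DESeq2 adjusted p = 0.0479). Bpgm, which makes bisphosphoglycerate, had 2 to 145 counts in Control, with 0 and 3 in Cre. Galm, which interconverts the ring forms of sugars, had 3 counts in Control replicate 1, 0 in the other 4 Control libraries, and 24 and 196 in Cre (edgeR adjusted p = 0.323).

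Of 18 other lactate and pyruvate genes, 11 were tested, with 1 higher and 0 lower by an unadjusted p under 0.05, against 1.41% and 10.2% of all tested genes, and a median of 0.68. That gene was Emb, embigin, a partner protein of lactate carriers, at 539, 406, 342, 279 and 388 CPM in Control, with 509 and 995 CPM in Cre (0.93 ± 0.39, edgeR adjusted p = 0.422). Control replicate 1 lay above Cre replicate 1. Pdhx, a structural subunit of the pyruvate dehydrogenase complex, stood at 26.3 ± 29.8 CPM in Control, with 77.2 and 75.2 CPM in Cre, both higher than any Control value (edgeR adjusted p = 0.703). Acly, which makes cytosolic acetyl-CoA, stood at 103 ± 43.7 CPM in Control, with 154 and 0 CPM in Cre. The sum over the 18 genes was 505 to 899 CPM in Control, with 1219 and 1221 CPM in Cre, higher than in any Control library, of which Emb gave 509 and 995 CPM.

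Of 11 other pentose phosphate genes, 8 were tested, with 0 higher and 2 lower by an unadjusted p under 0.05, where 10.2% of all tested genes were lower. The median was −1.64, beside −0.66 for all genes under 100 CPM. Dera, a deoxyribose phosphate aldolase, had 65, 71, 67, 85 and 48 counts in Control, with 8 and 2 in Cre (−3.84 ± 1.60, edgeR adjusted p = 0.422, DESeq2 adjusted p = 0.0149). Prps2, which makes the activated ribose for nucleotide synthesis, had 1 to 58 counts in Control, with 0 in both Cre libraries (at least 24.2-fold below the Control mean). Rpe, the ribulose phosphate epimerase, had 12 to 143 counts in Control, with 7 and 0 in Cre. Pgls, the lactonase of the oxidative branch, stood at 90.5 ± 64.7 CPM in Control, with 99.9 ± 41.8 CPM in Cre.

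The hypoxia-inducible factor pathway and its targets outside glycolysis had 0 genes at an edgeR unadjusted p under 0.05, of 6 and 13 tested. Of all tested genes, 1.41% were higher and 10.2% lower at that threshold. Egln2, a prolyl hydroxylase that marks the factor for destruction, stood at 186, 403, 129, 155 and 258 CPM in Control, with 126 and 27.6 CPM in Cre (−1.52 ± 0.70, edgeR adjusted p = 0.429), both lower than any Control value. Hif1an, which inhibits the factor, stood at 170.3 ± 56.1 and 179.9 ± 47.0 CPM. Ddit4, an inhibitor of mTORC1 induced by low oxygen, stood at 1104 ± 320 CPM in Control, with 598 and 1080.2 CPM in Cre (edgeR adjusted p = 0.738). Of the 13 tested targets, 10 had lower fitted values in Cre (median −0.96), where 60.1% of all tested genes did (median −0.39). All 18 targets summed to 1234 to 2207 CPM in Control, with 1063 and 1588 CPM in Cre. Of 7 tested transcription factors that act on glycolytic genes, 1 was higher at an edgeR unadjusted p under 0.05 and 0 were lower. That factor was Tcf7, with 420 ± 150 CPM in Control and 749 ± 61.6 CPM in Cre (edgeR adjusted p = 0.427). Max stood at 573 ± 172 and 520 ± 67.8 CPM.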

How the data were processed

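Libraries were made from the 3′ UTR ends of total RNA of the sorted cells, per the labels' protocols. The count table that the authors deposited holds raw counts, whole numbers, for 116000 regions of 55364 genes. FastQC 0.11.8, HISAT2 2.1.0, DESeq2 and mm10 stand in the submitters' processing notes. Which tool counted reads, whether it used strand and which annotation it read is not given in the sources used here. A further deposited table compares Cre with Control, with DESeq2 p-values and FDR, a fold as a ratio of normalized values, its log2 fold change, and GC content in percent (not used), per the file headers. Groups came from sample titles.

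Counts were summed per gene, and Aldoa was the gene of that symbol with counts. Genes were tested with edgeR 4.0.16 (R 4.3.3; TMM, robust quasi-likelihood F-test, two-sided, group only, filterByExpr with minimum count 10 and total 15), with Benjamini-Hochberg adjustment over 9854 genes and a threshold of 0.05. Standard errors came from the F statistic. The fit was run on simulated data with changes larger than those fitted for most members, which does not show how well it detects smaller ones. Copies were found with blastn 2.17.0 among GENCODE M21 transcripts (mm10). Alternatives were other scaling, filters, libraries left out, a replicate block, DESeq2 1.42.0, limma 3.58.1 voom and other region sets. Members with a mean of at least 50 CPM or an unadjusted p under 0.05 are described in full; of each list, up to 4 genes of smallest p and 2 of highest level are named. Aldoc, Pgam1, Pfkl and others were given in full beyond that rule after their values were seen. The members and lists were chosen with earlier results of these data known.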

Additional observations from a re-analysis of the deposited data

Results flagged for a closer look

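Pgd in Control replicate 2 stood apart from the other Control libraries, at 218 CPM against 85.4 to 103 CPM in the other 4. Of the 17 members described in full this was the only such value, and chance flags about 1 in 20 groups of samples. Cre replicate 1, at 177 CPM, also lay above those 4 libraries.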

How the results depend on the processing

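No member passed the threshold under any of the 16 alternatives that gave it a value; the smallest adjusted p was 0.0803 (Aldoc, DESeq2). Over all genes, 0 higher and 1 lower became 15 and 28 without a filter, 31 and 561 with DESeq2, 3 and 0 with limma voom, and 5 lower with the replicate block; leaving out a library gave 0 to 17 higher and 1 to 202 lower, the extremes without Cre replicate 1. Other pathway genes went from 0 and 0 to 1 higher (Galm) and 5 lower with DESeq2, and to 0 to 1 higher and 0 to 1 lower with a library left out. Of 272 member values, 19 turned sign, for 7 of 17 members. With upper-quartile factors Eno1 was −0.012, Ldha −0.043 and Hif1a −0.066. With a library left out the lowest and highest values were −0.89 and 0.63 for Eno1, −0.048 and 0.21 for Ldha, −0.10 and 0.32 for Hif1a, −2.82 and 0.12 for Pfkp, −2.44 and 1.48 for Pfkfb3, −1.30 and 0.99 for Tpi1, and −0.36 and 0.66 for Pgd. Pfkfb3 was −1.01 with the replicate block and −0.23 with voom, and Pgd −0.15 with the block. The cause was not tested. The labels do not say that equal replicate numbers pair samples. Deviations of same-numbered libraries correlated at 0.003 and 0.002, and those of Control replicate 5 and Cre replicate 1 at 0.005. With 2 Cre libraries, their deviations from the group mean mirror each other, so this check cannot settle a pairing. The most-counted-region fit was chosen after seeing the data. Size factors moved the median of all genes by 0.10 and upper-quartile factors by −0.10; 12 of 31 members were then higher with the latter. A count of 0 allows up to 3 counts, so no level under that can be told from 0.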
